A study of Homo sapiens with 12 samples.

Results

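A downstream ORF (dORF) is an open reading frame that starts behind the stop codon of the main coding sequence of an mRNA, in the 3′ untranslated region. Ribosomes usually leave an mRNA soon after they reach the stop codon of the coding sequence. They can enter the 3′ untranslated region by reading through the stop codon, by starting again after termination, or when recycling of the terminated ribosome fails, and the footprints they leave there are generally sparse. In a polysome gradient, mRNAs with 1 ribosome sediment as monosomes and mRNAs with several as polysomes, counted over all ORFs of the mRNA.

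The ORF table of the study was made with the caller PRICE, which calls ORFs from footprints and accepts start codons that differ from ATG at 1 base. All 19984 rows of type dORF on nuclear chromosomes were taken, out of 149028 rows of all types. Rows of the table overlap and share footprints, so each codon was counted once, with coding ORFs (types CDS, Trunc and Variant) first and higher totals next. This kept 17581 dORFs of 124829 kept ORFs, in 5267 gene entries. Of the dropped rows, 1348 shared a codon with a kept coding ORF, and these held 66.5% of the footprints summed over all dORF rows. The dORF row with the most footprints, a 465 nt ORF of 5 blocks in the gene entry ENSG00000142534_ENSG00000200530, was one of them, with 120802 footprints. The kept dORFs held 1122529 footprints, 27.0% of the sum over rows.

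The cells were HEK293, a human embryonic kidney line, under serum starvation (2 h without fetal bovine serum), amino acid starvation (1 h in EBSS, a salt solution, with vitamins and serum) or in log phase in full medium. From each condition a monosome and a polysome fraction were profiled in 2 libraries, here called A and B after the table's columns, which gives 12 libraries in 6 groups. No label says that the 2 libraries of a group come from separate cultures, so p-values measure the spread between libraries only. A footprint count follows the amount of the mRNA in a fraction and its translation alike, and these cannot be told apart here.

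Footprints over all kept ORFs numbered 354508 to 1204003 in the monosome libraries and 2477822 to 7683719 in the polysome libraries. Coding ORFs of VIM, NEFL and NEFM, whose products are filament proteins known from HEK293 cells, carried footprints in all 12 libraries. KRT8, KRT18, PAX2 and EYA1 were also looked up as HEK293 markers and were not seen alike. KRT8 had at most 1.89 CPM (footprints scaled to library depth), and no coding ORF stood under the names KRT18, PAX2 or EYA1. None stood under PTPRC, HBB or ALB either, which were looked up as markers of other cells. In the monosome A libraries of log phase and amino acid starvation, a 9 nt ORF of another type held up to 47.9% of the library. Results that change without these libraries are given with and without them.

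No genome was used, so dORF sequences are known only where an ORF lies inside a promoter window of the reference tables. Among kept dORFs there of at most 30 nt with at least 20 footprints, 1 is printed to show what the caller accepts as a short dORF. It belongs to the entry SYNJ2BP-COX16, lies at chr14:70359662-70359682 on the minus strand of GRCh38.p14 (sequence from RefSeq), and carried 625.4 footprints over the 12 libraries. The capitals mark its AGG start codon, and the last 3 bases are its stop codon.
SYNJ2BP-COX16 dORF: AGGacgtactcgtcttggtga
The start codon lies 1 base from the annotated start of COX16, so what is downstream of the SYNJ2BP coding sequence in the joined entry is the 5′ end of the COX16 gene. All 3123 unspliced ORFs of any type inside such windows began with the codon given for them and ended with a stop codon. A dORF of 6 nt, the shortest length in the table, is therefore a start codon followed at once by a stop codon.

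Position against the coding ORFs separated the dORFs into 5 classes, and most dORF footprints lay on bases that are also coding. The class beyond the coding end held 8623 dORFs, which lie behind the last coding base called in their gene entry, and 21.7% of the dORF footprints. Another 3308 dORFs lay on bases of a coding ORF in another reading frame and held 63.8% of the footprints. Only 86 used codons of a coding ORF that was itself not kept (1.82%), 1253 lay within the span of the coding ORF, in introns or untranslated parts (3.62%), and 4311 were in entries with no coding ORF in the table (9.08%). Footprints on the second class can come from the coding frame, and values of that class are given apart. Gene entries that join several genes held 3850 dORFs, or 21.9%. The class beyond the coding end rests on the coding ORFs that the caller found. In 1555 of its 8623 dORFs the entry has a coding ORF of type CDS, and in the others it is a truncated or variant form.

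The kept dORFs were short and sparse. Their median length was 33 nt, with quartiles of 15 and 57 nt and a longest of 2001 nt, and their median total was 12.7 footprints over all 12 libraries. At least 100 footprints were found for 1605 dORFs and at least 1000 for 150, and 680 had a footprint in each library. The 10 dORFs with the most footprints held 10.6% and the top 100 held 32.9% of the footprints. A caller p under 1e-4 was deposited for 44 of the kept dORFs, 16 of them beyond the coding end. Summed over the type, dORFs had 4.12 footprints per codon, against 6.81 for upstream ORFs and 22.1 for ORFs of type CDS. Truncated coding ORFs had 6.6 and variant ones 16.8. Length went with overlap. Of dORFs over 120 nt, 54.8% shared bases with coding ORFs, against 9.39% of those of 6 to 15 nt.

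Start codons were spread over 10 triplets. CTG was the most frequent with 2908 dORFs, then AGG with 2482, GTG with 2202, AAG with 2051, TTG with 1929 and ATG, the standard start codon, with 1914. ATG thus made up 10.9% of dORFs, near its 13.1% among upstream ORFs and far from its 99.9% among CDS ORFs. Among the other coding types it made up 11.0% of truncated and 0.884% of variant ORFs. The remaining 4 were ATT, ATC, ATA and ACG, with 1489, 1108, 931 and 567 dORFs. The median length was 33 nt for ATG and CTG dORFs alike. Of the 914 dORFs that start within 100 genomic bases of the coding end, 377 started a multiple of 3 bases behind it, and 263 and 274 at the other spacings. Their footprints numbered 17299 at a multiple of 3, 8956 at 1 base more and 21304 at 2 bases more, or 8885 at the last spacing without the dORFs named H3C4.

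Between fractions, the share of dORFs among all nuclear footprints did not differ beyond the spread of the libraries. It was 1.79 and 4.92% in log phase monosomes, 6.40 and 6.85% in serum starvation monosomes and 1.94 and 5.17% in amino acid starvation monosomes (A and B). The polysome libraries gave 2.54 and 3.75% in log phase, 3.01 and 3.58% under serum starvation and 2.10 and 4.26% under amino acid starvation. The B library was above the A library in each of the 6 groups. The mean was 4.51 ± 2.17% in monosomes and 3.21 ± 0.807% in polysomes (SD, n = 6 libraries each), with 4 of 6 pairs of 1 condition and letter higher in monosomes (exact permutation within condition, two-sided, p = 0.167). Without the log phase and amino acid starvation monosome A libraries the difference was 2.36 percentage points (exact permutation, p = 0.037). Counting error is small beside this spread: the 95% Wilson interval of the shallowest library, serum starvation monosome A, was 6.31 to 6.48%. Such intervals cover counting error only, since PCR reads without molecular identifiers are not independent molecules. The plot of the shares by library shows this split by position class.

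**Figure D1:**
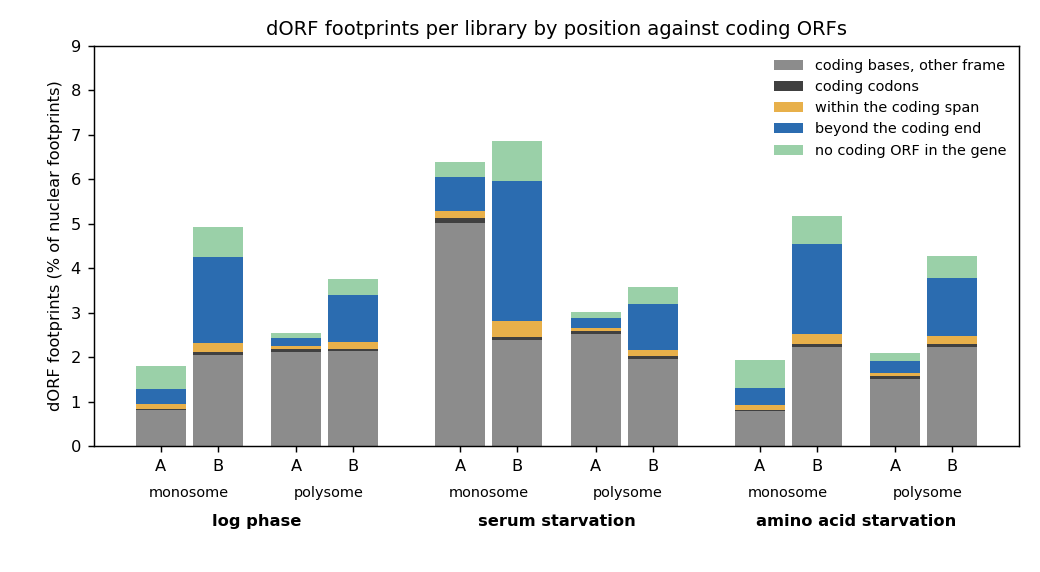
dORF footprints in percent of nuclear footprints (vertical axis) for each of the 12 libraries, monosome left of polysome within each condition and A left of B, stacked by position against coding ORFs. The part beyond the coding end is larger in B than in A of every group, and the serum starvation monosome libraries reach 6.40 and 6.85%.

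Set against the coding ORFs of the same genes, dORF footprints stood at a higher ratio in monosomes. Coding ORFs themselves held a smaller part of the nuclear footprints in monosomes of each condition. In log phase they held 265172 of 1149074 (A) and 328311 of 723869 (B) in monosomes. Polysomes had 5311884 of 7677936 and 2038142 of 3576038. The ratio thus depends on both coding and dORF footprints, and their parts in the difference were not tested. Per 100 coding footprints, dORFs had 7.85 and 13.1 footprints in log phase monosomes, 25.9 and 22.3 in serum starvation monosomes and 8.76 and 13.4 in amino acid starvation monosomes. Log phase polysomes had 5.13 and 8.24, serum-starved polysomes 6.62 and 7.33 and amino-acid-starved polysomes 4.51 and 8.78. All 6 pairs were higher in monosomes. On the log2 scale the ratio was -2.85 in monosomes and -3.93 in polysomes, a difference of 1.07 (exact permutation within condition, two-sided, p = 0.037). Swapping fractions only within the same letter gave p = 0.0312, the smallest of 64 swaps (exact permutation). Where only CDS-type ORFs were taken as coding, the difference was 0.62 and no longer passed (exact permutation, p = 0.0833).

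The higher ratio in monosomes was found in each position class that has a coding ORF to compare with. Beyond the coding end, dORFs had 3.12 and 8.77 footprints per 100 coding footprints in log phase monosomes, 4.94 and 17.2 in serum starvation monosomes and 3.76 and 8.90 in amino acid starvation monosomes. Polysome values were 0.620 and 3.85 in log phase, 0.783 and 3.42 with serum starvation and 0.922 and 4.24 with amino acid starvation. The pairs were all higher in monosomes, but the A libraries of monosomes overlapped the B libraries of polysomes. The means were 7.79 ± 5.25 in monosomes and 2.30 ± 1.70 in polysomes (SD, n = 6 each), and the adjusted p over the 4 classes was 0.037 (exact permutation). It was 6.23 against 2.19 without dORFs overlapping small RNA genes (exact permutation, p = 0.0463). With genes that have a CDS-type coding ORF alone the difference fell to 1.93, against 5.48 in all, and did not pass (exact permutation, p = 0.139). Without serum starvation monosome library B it was 3.43 and did not pass either (exact permutation, p = 0.157).

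dORFs within the coding span had 5.57 ± 1.97 footprints per 100 coding footprints in monosomes and 2.14 ± 1.07 in polysomes (SD, n = 6 each, exact permutation, adjusted p = 0.0185). On coding bases in another frame the values were 13.0 ± 9.01 in monosomes and 6.98 ± 1.07 in polysomes (adjusted p = 0.037, exact permutation), and the 86 on coding codons had 5.96 ± 2.10 and 3.60 ± 0.573 (adjusted p = 0.0185, exact permutation). The ratio of monosomes to polysomes was thus largest beyond and within the span, where no coding base is shared; the difference between classes was not tested. Footprints per codon of a dORF over those of its coding ORF had a median of 0.176 beyond the coding end (2214 dORFs), and 181 of these had more footprints per codon than the coding ORF. On coding bases in another frame the median was 0.397.

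**Figure D2:**
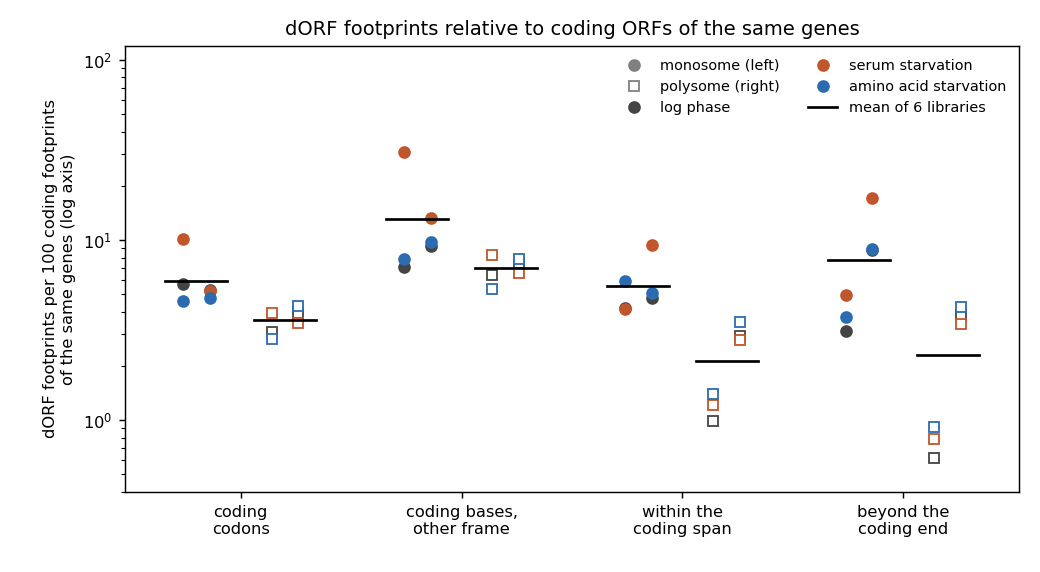
dORF footprints per 100 coding footprints of the same genes (vertical log axis) by position class, monosome libraries as filled circles left and polysome libraries as open squares right, A left of B, coloured by condition, with a bar at the mean of 6 libraries. Beyond the coding end the monosome libraries lie at 3.12 to 17.2 and the polysome libraries at 0.620 to 4.24.

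Monosome dORF footprints lay in shorter ORFs. dORFs under 30 nt held 37.0 and 23.6% of the dORF footprints in log phase monosomes, 9.42 and 26.2% in serum starvation monosomes and 42.7 and 24.7% in amino acid starvation monosomes. Against these, polysomes of log phase had 5.88 and 13.7%, of serum starvation 5.83 and 15.6% and of amino acid starvation 10.7 and 14.8%. Each monosome library was above its polysome partner of the same letter. The means were 27.3 ± 11.6% and 11.1 ± 4.37% (SD, n = 6 each, exact permutation within condition, two-sided, p = 0.0185). Without the log phase and amino acid starvation monosome A libraries the difference was 11.0 percentage points and missed the threshold (exact permutation, p = 0.0556).

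Among dORFs beyond the coding end, 3 of 5 length classes differed between fractions, the shorter ones higher and the longest lower in monosomes. The classes are parts of the same total, so these are not separate results. ORFs of 6 to 15 nt held 21.9 ± 6.54% of the class's footprints in monosomes and 11.7 ± 3.35% in polysomes, and those of 16 to 30 nt held 18.8 ± 5.18% and 11.4 ± 3.94% (SD, n = 6 each, exact permutation, adjusted p = 0.0462 and 0.0463 over 5 classes). ORFs over 120 nt made up 9.31 ± 1.12% in monosomes, against 27.7 ± 13.9% in polysomes (exact permutation, adjusted p = 0.0462). With the H3C4 dORFs left out the last pair was 8.45 and 17.9%. Without dORFs overlapping small RNA genes the class of 6 to 15 nt held 16.8% in monosomes, against 10.9%, and did not pass (exact permutation, p = 0.0648). Adjusted over 5 classes with swaps within letter pairs, these 3 gave p = 0.052 each (exact permutation), above the threshold. Before adjustment each had p = 0.0312 (exact permutation), the smallest that the swaps allow. By distance, dORFs starting within 100 bases of the coding end took 14.8 ± 1.94% in monosomes, against 27.1 ± 12.5% in polysomes (exact permutation, adjusted p = 0.037 over 4 distances). Most of this gap was H3C4, without whose dORFs the values were 14.0% and 17.0% (exact permutation, p = 0.037). Without the log phase and amino acid starvation monosome A libraries the 3 length classes and this distance no longer passed (exact permutation, adjusted p = 0.123 for each length class and 0.148 for the distance).

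**Figure D3:**
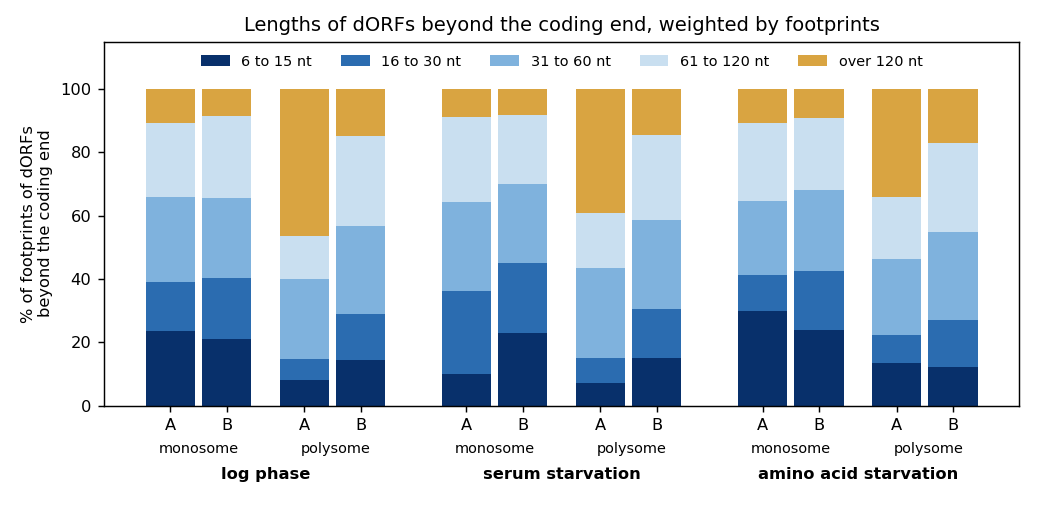
Share of the footprints of dORFs beyond the coding end (vertical axis, percent) by ORF length for each library, monosome left of polysome and A left of B. Footprints in ORFs of 6 to 15 nt average 21.9% in monosomes and 11.7% in polysomes, and those over 120 nt 9.31 and 27.7%.

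By start codon, ACG dORFs held 6.93 ± 3.03% of dORF footprints in monosomes and 4.20 ± 0.249% in polysomes, higher in 6 of 6 pairs, and AGG dORFs held 12.2 ± 1.45% and 16.9 ± 1.31%, lower in 6 of 6 pairs (SD, n = 6 each, exact permutation, adjusted p = 0.0463 for both over 10 codons). With swaps within letter pairs the adjusted p was 0.104 for both (exact permutation). Before adjustment both had p = 0.0312 there (exact permutation), the smallest that the swaps allow. The log phase and amino acid starvation monosome A libraries had the highest ACG shares of their dORF footprints, 10.2 and 11.3%. Without them ACG dORFs held 5.02% in monosomes and 4.20% in polysomes, and AGG dORFs 13.1% and 16.9%, and neither passed (exact permutation, adjusted p = 0.0617 for both). Before adjustment both had p = 0.0185 (exact permutation), the smallest that the remaining libraries allow, so missing the threshold does not show a lost difference. Within conditions the difference was -3.89 percentage points for AGG, against -4.73 with all libraries, and 0.991 for ACG, against 2.74. ATG dORFs held 15.4 ± 7.26% in monosomes and 11.0 ± 1.36% in polysomes, which did not pass (exact permutation, p = 0.306), and without these 2 libraries the difference was -0.336 percentage points.

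Starvation was set against log phase within each fraction. With 2 libraries against 2 the exact two-sided p cannot go below 0.333, so the shares are described only. In monosomes dORFs had 25.9 and 22.3 footprints per 100 coding footprints in serum starvation and 7.85 and 13.1 in log phase, and these groups did not overlap. Amino acid starvation monosomes, with 8.76 and 13.4, lay with log phase. In polysomes serum starvation (6.62 and 7.33) lay inside the range of log phase (5.13 and 8.24), and so nearly did amino acid starvation (4.51 and 8.78). The 2 serum starvation monosome libraries differed in makeup. The class on coding bases in another frame held 78.3% of the dORF footprints in A and 35.0% in B.

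Single dORFs were tested with edgeR's quasi-likelihood test on rounded expected counts, adjusted over all 26466 ORFs tested. The filter on low counts passed 2363 of the 17581 dORFs, 781 of them beyond the coding end. Many passed through 1 fraction: 925 reached the minimum in monosome libraries but not in polysome libraries, 524 the reverse, and 749 in both. Members that passed through 1 fraction had to differ, so the following counts describe the tested dORFs and support no statement on all of them. Over the mean of 3 conditions 805 dORFs were called at an adjusted p under 0.05, 518 higher and 287 lower in monosomes, or 34.1%, beside 39.5% of all ORFs tested. Adding the library letter as a model term called 1212, beside 54.5% of all ORFs. With no filter the split was 634 higher and 898 lower. The median log2 of monosome over polysome was 0.28 for dORFs and -0.48 for all tested ORFs. Among those that reached the minimum in both fractions it was -0.2 and -0.53.

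Beyond the coding end 214 of 781 tested dORFs were higher and 11 lower in monosomes (27.4 and 1.41%), beside 16.7 and 22.8% of all ORFs tested. Of these 781, 438 reached the minimum in monosome libraries alone and 125 in polysome libraries alone, so the filter itself favours higher values in monosomes. Among the 142 of this class that reached the minimum in both fractions, 13 were higher and 6 lower (9.15 and 4.23%), beside 10.4 and 26.1% of the 11870 ORFs of any type that did so. On coding bases in another frame 182 were higher and 239 lower of 1195. Relative to the coding ORFs of the same gene, tested with these as an offset, 183 of 1320 dORFs were called, 166 higher and 17 lower. Of all 6656 ORFs in this fit 10.1% were called (8.2% higher and 1.89% lower). These were upstream, internal and downstream ORFs of genes with coding ORFs, a narrower set than all ORFs tested above. The letter as a term called 335 dORFs, beside 18.7% of the 6656. Across dORFs, log2 of monosome over polysome followed that of the host coding ORF with a Spearman rho of 0.767 on coding bases in another frame (1195 dORFs), 0.48 beyond the coding end (781) and -0.0306 within the span (131). These are descriptions across dORFs of the same libraries.

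**Figure D4:**
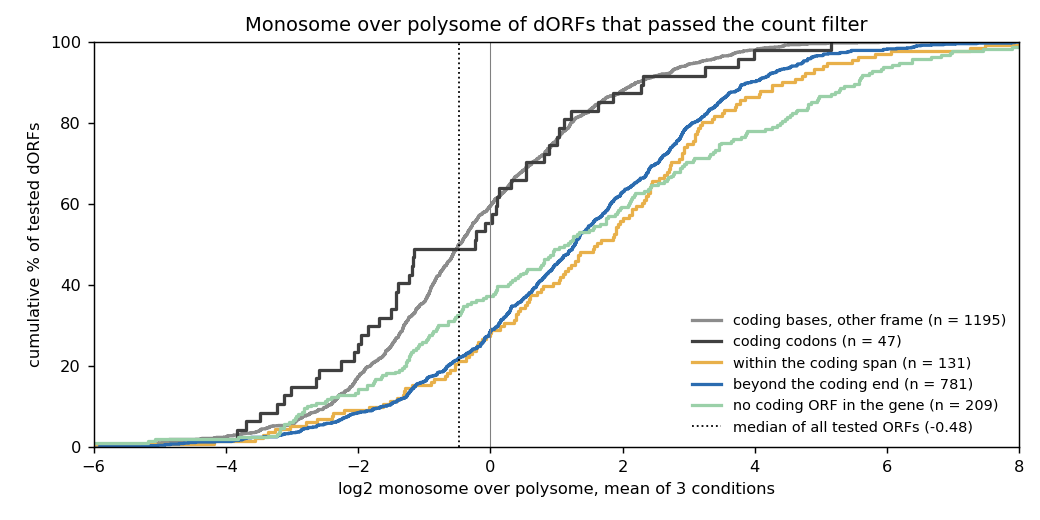
Cumulative share of tested dORFs (vertical axis, percent) by log2 of monosome over polysome, averaged over 3 conditions (horizontal axis), for the 5 position classes, with a dotted line at the median of all tested ORFs, -0.48. The class on coding bases in another frame is centred on -0.47 and the class beyond the coding end on 1.28. The latter value depends on the count filter. For the 142 dORFs beyond the coding end that reached the minimum in both fractions the median was 0.32.

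Within single conditions few dORFs passed. In log phase 102 dORFs were higher and 31 lower in monosomes, 5.63% of those tested, beside 6.79% of all ORFs (5.0% higher and 1.79% lower). Serum starvation gave 112 higher and 12 lower, 5.25% beside 6.73% (4.6% higher and 2.13% lower). Amino acid starvation gave 49 higher and 1 lower, 2.12% beside 3.35% (3.01% higher and 0.34% lower). The letter as a term called 621, 687 and 371 dORFs, beside 26.8, 29.6 and 18.4% of all ORFs. For starvation against log phase no dORF was called in any of the 4 comparisons by edgeR, beside 0.0% of all ORFs in each. At an unadjusted p under 0.05 there were 104 dORFs for amino acid starvation in polysomes, 49 in monosomes, and 28 and 96 for serum starvation in polysomes and monosomes, of 2363. For amino acid starvation in polysomes the letter as a term called 24, beside 1.62% of all ORFs, and DESeq2 called 6. For serum starvation in monosomes each of these called 1, with 0.034% of all ORFs called by the letter term. In the comparison of amino acid starvation with log phase in polysomes, none was called relative to coding ORFs, with 4 at an unadjusted p under 0.05. The counts within conditions moved with single libraries. The number of dORFs tested moved as well, since the filter passed 5580 in place of 2363 without the log phase and amino acid starvation monosome A libraries. Their effects on the counts were not separated. Amino acid starvation gave 0 without either of its polysome libraries, log phase 19 without its polysome library A and serum starvation 18 without its polysome library A. Without the log phase and amino acid starvation monosome A libraries amino acid starvation gave 0, serum starvation 26 and log phase 8.

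Of the 12 dORFs with the most footprints, 9 lay on coding bases in another frame and 3 beyond the coding end. The first was a 159 nt ATC dORF of H2AC11, a core histone gene, with 25285 footprints in another frame than a called coding ORF of 36 nt. It did not differ between fractions (log2 0.44 ± 0.495 SE, edgeR, adjusted p = 0.485). The dORFs of RPS19 (177 nt) and RPL36 (264 nt), both ribosomal protein genes, did not pass either, with log2 of -0.70 and 0.22 (edgeR, adjusted p = 0.237 and 0.776). A 117 nt TTG dORF on coding bases of CA2, which makes carbonic anhydrase, fell by 3.03 ± 0.437 (SE) on the log2 scale in monosomes (edgeR, adjusted p = 0.000163), and relative to the CA2 coding ORF it did not pass (log2 -0.59, edgeR, adjusted p = 0.447).

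The dORF beyond a coding end with the most footprints was named H3C4 by position, has an ATC start and 258 nt at chr6:26196840-26197097, and held 12420 footprints. It had 64.0 and 23.4 CPM in log phase monosomes, 53.2 and 35.4 in serum starvation monosomes and 195 and 119 in amino acid starvation monosomes. The polysome libraries gave 772 and 168 in log phase, 626 and 170 under serum starvation and 409 and 136 under amino acid starvation. The fractions did not overlap in log phase and serum starvation, and overlapped in amino acid starvation. The change was -2.48 ± 0.541 (log2, SE, edgeR, adjusted p = 0.00309), or -1.77 relative to coding (adjusted p = 0.01). The entry joins 2 histone genes. Its coding ORF of 513 nt has 385 bases inside H2AC7, and the dORF lies inside H3C4 and ends 56 bases before the annotated 3′ end of that gene. Whether it covers the annotated coding sequence of H3C4 was not tested, since no coding annotation was used.

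dORFs overlapping small RNA genes were few, and 7 of them held nearly all the footprints. In all 28 kept dORFs overlapped such genes, with 24767 footprints. Of these, 6 dORFs overlapping SNORD118 held 20062 and a 507 nt dORF of SRSF2 that overlaps MIR636 held 3692.5. The counts are those of whole dORFs, so footprints outside the small RNA gene are included. Of 15 tested, 12 were higher and 1, the SRSF2 dORF, lower in monosomes, beside 16.7 and 22.8% of all ORFs tested. The 3′ part of TMEM107, which encodes a protein of the ciliary transition zone, holds SNORD118, the gene of the U8 small nucleolar RNA of ribosome biogenesis. Its 15 nt ATT dORF at chr17:8173455-8173469 had 125 and 1140 CPM in log phase monosomes, 71.1 and 2890 in serum starvation monosomes and 531 and 1820 in amino acid starvation monosomes. Log phase polysomes had 7.23 and 178, serum-starved polysomes 14.3 and 168 and amino-acid-starved polysomes 18.8 and 164. B libraries were far above A libraries in each group, and within each letter every monosome library was above every polysome library. The log2 fold was 3.49 ± 1.01 (SE, edgeR, adjusted p = 0.0146), and the TMEM107 coding ORF had 6.1 footprints in all. SNORD118 dORFs held 0.502 to 10.9% of the dORF footprints in monosome libraries and 0.0604 to 1.78% in polysome libraries. Whether these are ribosome footprints was not tested.

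Of the kept dORFs, 151 overlapped annotated pseudogenes, and their footprints may be shared with the parent gene by the counting. For 16 dORFs in 8 sets, all with at least 20 footprints, the values were the same in all 12 libraries as those of another dORF.

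YBX1, which encodes an RNA-binding cold shock protein, has 2 dORFs beyond its coding end that were far higher in monosomes. A 30 nt ATG dORF starts 1010 genomic bases behind the coding end, inside an 81 nt AAG dORF in another frame, at chr1:42702026-42702055. It had 211 and 53.9 CPM in log phase monosomes, 554 and 136 in serum starvation monosomes and 79.1 and 48.2 in amino acid starvation monosomes. Against these, polysomes of log phase had 0.642 and 0.686, of serum starvation 0.211 and 2.69 and of amino acid starvation 0.414 and 1.74. Every monosome library was above every polysome library, with a log2 of 7.03 ± 0.726 (SE, edgeR, adjusted p = 9.99e-06). The YBX1 coding ORF had 184 to 458 CPM in monosomes and 127 to 220 in polysomes, and relative to it the dORF was at 6.37 ± 0.678 (SE, edgeR, adjusted p = 0.000355). The 81 nt dORF gave 6.51 on the log2 scale (edgeR, adjusted p = 1.87e-05).

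Other dORFs behind coding ends rose relative to their coding ORFs. RPS24, a small-subunit ribosomal protein gene, has a 42 nt ATG dORF 13 bases behind the called coding end. It had 73.3 and 54.4 CPM in log phase monosomes, 59.6 and 75.6 in serum starvation monosomes and 31.8 and 76.1 in amino acid starvation monosomes. The polysome libraries gave 6.62 and 16.8 in log phase, 5.70 and 16.3 under serum starvation and 7.41 and 6.93 under amino acid starvation. All monosome libraries were above all polysome libraries, by 2.66 ± 0.448 (log2, SE, edgeR, adjusted p = 0.000555) and by 2.56 relative to coding (adjusted p = 0.00929). The 153 nt AGG dORF of SRSF2, a splicing factor gene, had 23.0 to 48.7 CPM in monosomes and 0.827 to 7.51 in polysomes, a log2 of 4.97 relative to coding (edgeR, adjusted p = 0.000429). A 24 nt ACG dORF of the neurofilament gene NEFM was at 3.36 relative to coding (edgeR, adjusted p = 0.00103), and it was highest in serum starvation monosome library B, at 66.9 CPM.

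Some dORFs went the other way. The 39 nt ATA dORF on coding bases of MRPS14, a mitochondrial ribosomal protein gene, had 0.552 to 6.12 CPM in monosomes and 10.0 to 56.4 in polysomes (log2 -4.17 ± 0.678 SE, edgeR, adjusted p = 0.000432). Relative to coding it was at -2.97 (edgeR, adjusted p = 0.0142). That relative call held under 11 of 17 alternatives, and the first under 19 of 19. A 57 nt TTG dORF of RPS25, a small-subunit protein gene, was at -2.79 relative to coding (edgeR, adjusted p = 0.00501), and a 456 nt dORF of the joined entry BOLA2-SMG1P6 at -4.43 (adjusted p = 0.000355), though its own change was -0.48 and did not pass (adjusted p = 0.481). SMG1P6 is a pseudogene copy of SMG1, so its reads may be split.

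Selenoprotein mRNAs carry a stem-loop in the 3′ untranslated region that lets an in-frame UGA be read as selenocysteine. Their 56 dORFs in 12 genes included 33 beyond the coding end, and of 14 tested 3 were higher and 5 lower in monosomes, with a median log2 of -1.24, beside 16.7% higher and 22.8% lower among all ORFs tested. A 39 nt ATG dORF of SELENOK, an endoplasmic reticulum selenoprotein, starts 148 bases behind the coding end and had 10.5 times the footprints per codon of the coding ORF. It had 1.79 and 5.37 CPM in log phase monosomes, 0.638 and 8.92 in serum starvation monosomes and 2.87 and 10.6 in amino acid starvation monosomes. Log phase polysomes had 9.45 and 76.1, serum-starved polysomes 8.32 and 61.5 and amino-acid-starved polysomes 15.3 and 20.8. B was above A in each group, and within each letter monosomes were below polysomes (log2 -2.51 ± 0.736 SE, edgeR, adjusted p = 0.0154). The coding ORF of SELENOK had 15.1 to 41.7 CPM in monosomes and 8.88 to 39.5 in polysomes.

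SELENOF, another endoplasmic reticulum selenoprotein, has a CDS-type coding ORF and a 96 nt AAG dORF 680 bases behind it with 2684.7 footprints. This dORF had 5.87 and 32.4 CPM in log phase monosomes, 0 and 23.9 in serum starvation monosomes and 2.58 and 49.8 in amino acid starvation monosomes. Polysome values were 6.45 and 123 in log phase, 5.17 and 191 with serum starvation and 25.9 and 86.7 with amino acid starvation. Within library B monosomes lay below polysomes, while the letters together overlapped. The log2 of -1.87 ± 0.926 (SE) did not pass (edgeR, adjusted p = 0.117), while it passed with the letter as a term (adjusted p = 0.000572). A 42 nt TTG dORF beyond the coding end of SEPHS2, an enzyme that makes the selenium donor, was listed at 0 in the 3 monosome A libraries and had 0.947 to 4.50 CPM in the B libraries. In polysomes it had 3.83 to 23.9 (log2 -2.87 ± 0.793 SE, edgeR, adjusted p = 0.0115). The dORFs on coding bases of the glutathione peroxidases GPX1 (72 nt) and GPX4 (264 nt) were higher in monosomes, by 2.76 and 3.82 (edgeR, adjusted p = 0.000585 and 4.04e-05), and relative to their coding ORFs by -0.27 and -0.45, which did not pass (adjusted p = 0.692 and 0.608).

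**Figure D5:**
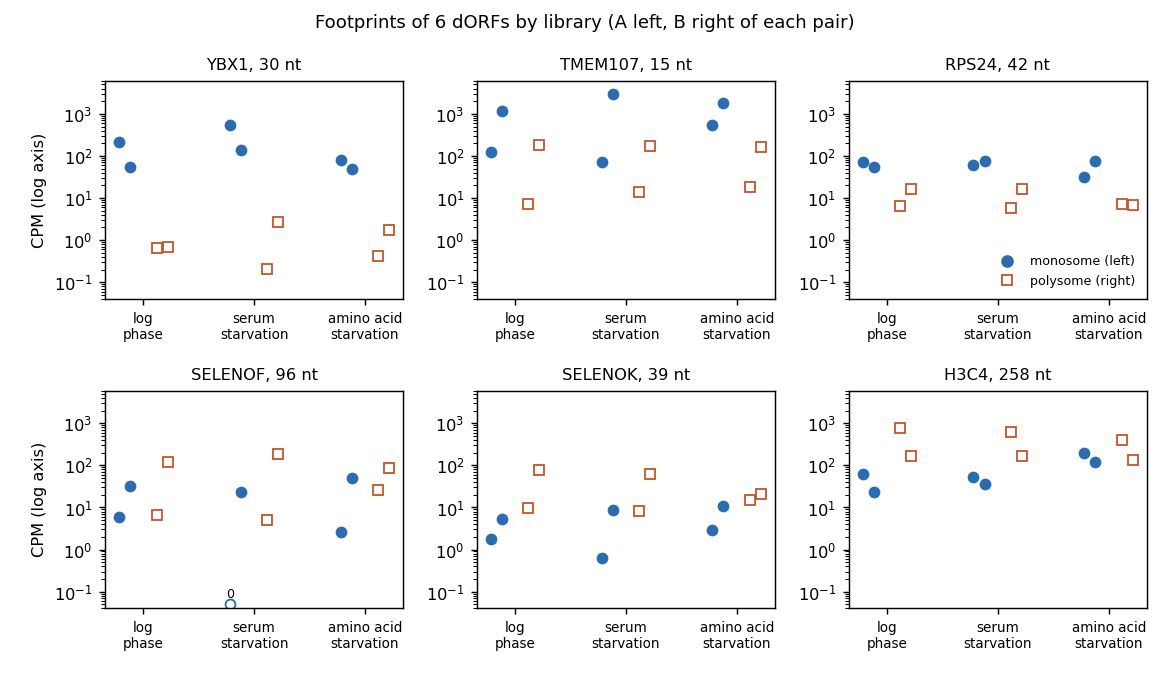
Footprints CPM (vertical log axis) of 6 dORFs in each library, monosome as filled circles left and polysome as open squares right, A left of B, by condition. YBX1, TMEM107 and RPS24 lie higher in monosomes, SELENOK and H3C4 lower, and SELENOF is listed at 0 in serum starvation monosome library A.

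A group of very short dORFs was nearly all in the log phase and amino acid starvation monosome A libraries, the ones with the dominant 9 nt ORF. The 12 nt ATG dORF of DPYD, a pyrimidine catabolism gene, had 2522.3 footprints in log phase monosome A and 1711.1 in amino acid starvation monosome A, 20.0 to 34.1 in the 3 monosome B libraries, 0 in serum starvation monosome A, and at most 0.5 in polysomes. NCALD (9 nt), HERC3 (12 nt), RAD51C (9 nt) and WASF2 (12 nt) showed this pattern, with 218.3 to 975.2 footprints in log phase monosome A and at most 2.3 in any polysome library. No fold is given for them, since the polysome libraries are nearly all at 0. DPYD, NCALD and WASF2 have no coding ORF in the table. Without these 2 libraries the shares above that rest on short dORFs were smaller, as given there.

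Other gene lists were described by their dORFs. Cytosolic ribosomal protein genes had 139 dORFs, and of 71 tested 22 were higher and 9 lower in monosomes (median log2 0.54). Of all ORFs tested 16.7% were higher and 22.8% lower, and of all dORFs tested 21.9% and 12.1%. Translation initiation and elongation factor genes had 209, of which 149 lay beyond the coding end, and of 74 tested 30 were higher and 4 lower (median 1.32). For genes of hnRNP and SR proteins, which bind nuclear RNA, 11 of 50 were higher and 4 lower (0.54), and for ZNF zinc finger genes 5 of 18 and 1 (0.97). Histone genes, replication-dependent and variant together, stood on the other side. Of their dORFs 2 of 33 were higher and 16 lower, with a median of -1.47, and relative to their coding ORFs the median was 0.05. The same medians over all dORFs tested were 0.28 and 0.61. Genes known for stop codon readthrough had 31 dORFs with 2 tested, and PEG10, a retrotransposon-derived gene read by frameshifting, had 30 with 6 tested. None of these 8 was called by edgeR without the letter term. With it the 597 nt dORF of SACM1L passed, at -1.05 (adjusted p = 0.0359), and relative to coding the 174 nt dORF of PEG10, at 2.01 (adjusted p = 0.0431). SACM1L has no kept coding ORF to compare with, so its spliced dORF cannot be placed in the 3′ untranslated region. Whether it covers annotated coding sequence was not tested.

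Footprints per codon of single dORFs were also set against those of the coding ORF. The highest ratio among those with at least 200 footprints on each side was 166, for a 6 nt AAG dORF of ARRDC4, an arrestin family gene, 2142 bases behind the coding end. It had 844.6 footprints, 413.9 of them in log phase polysome B and 255.3 in serum starvation polysome B, and none in serum starvation monosomes, and it did not pass (log2 -2.82, edgeR, adjusted p = 0.13). RTL8A, a retrotransposon-derived gene, has a 42 nt ATC dORF with 11.3 times the coding density and 43.4 to 207 CPM in monosomes against 11.0 to 75.0 in polysomes (log2 1.57 ± 0.555 SE, edgeR, adjusted p = 0.0363). This call held under 8 of 19 alternatives, and relative to coding it was at 0.91 and did not pass (edgeR, adjusted p = 0.128). The longest dORF with a small caller p was a spliced 1938 nt ORF of 19 blocks in PFKL, the liver phosphofructokinase gene, which has no coding ORF in the table. Its caller p was 1.79e-13, and it fell by 1.57 ± 0.493 (SE) on the log2 scale in monosomes (edgeR, adjusted p = 0.0216). With no coding ORF called, it cannot be placed in the 3′ untranslated region. Whether it covers the annotated coding sequence of PFKL was not tested, since no coding annotation was used.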

How the data were processed

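The authors deposited a table of ORFs with expected counts, in which PRICE divides footprints among ORFs, for each of 12 libraries. It also holds a p-value for each ORF, as the authors deposited it. Per the submitters' processing notes, Bowtie 1.0 and hg38 were used. Members, position classes and gene lists were chosen with earlier results of these data known.

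Each codon was counted once. Gene names came from RefSeq (GRCh38.p14) by position, for 16228 of 17581 dORFs. Expected counts were rounded to whole numbers, filtered (edgeR filterByExpr, minimum count 10, minimum total 15), scaled by TMM and fitted over 6 groups with edgeR 4.0.16 in R 4.3.3, with Benjamini-Hochberg adjustment per contrast. CPM values are TMM-scaled. Relative tests used the summed coding count of the gene as offset, where each library had at least 5. The common biological coefficient of variation was 0.632. The model was also run on counts simulated from its own fit with independent libraries. Such counts lack deviations that libraries of the same letter share, so the run is not used as support here. Summed shares and ratios (offset 0.5) were compared by exact permutation of fraction labels within condition and by swaps within letter pairs.

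B minus A deviations correlated between groups with r of 0.212 to 0.761, so the letters were taken to pair libraries, though the labels number replicates and do not use letters. dORFs were named by rule: the 12 with most footprints, up to 8 per direction and contrast among called dORFs whose groups did not overlap and whose higher group averaged at least 20 footprints, the 8 densest against their coding ORF with at least 200 footprints in each, those with at least 50 footprints on readthrough, frameshift and selenoprotein genes, and the 5 longest. Only some of them are described, and 1 gene is not reported here. Alternatives were DESeq2 1.42.0, limma 3.58.1, RLE scaling, other filters, every row, CDS-type ORFs alone, the replicate block and leaving out each library.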

Additional observations from a re-analysis of the deposited data

How the results depend on the processing

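Each group has 2 libraries, which limits the precision of all these results. The difference in the dORF share was -0.345 percentage points with every row of the table (exact permutation, p = 0.63) and -0.03 with a caller p under 1e-4 (p = 0.037, exact permutation), both reversed against 1.3. It was 2.01 without ORFs over 5% of a library and 2.36 without the log phase and amino acid starvation monosome A libraries (exact permutation, p = 0.037 for both), an alternative chosen after seeing the data. Without these 2 libraries the ATG share reversed to -0.336 (exact permutation, p = 0.704), and the difference in dORFs under 30 nt was 11.0 points (p = 0.0556, exact permutation), or 0.113 with a caller p under 1e-4 (exact permutation, p = 0.389). With CDS-type ORFs alone the log2 ratio of dORF to coding was 0.62 (exact permutation, p = 0.0833), and beyond the coding end 1.93 per 100 (exact permutation, p = 0.139). The cause of these changes was not tested.

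Leaving out 1 library at a time gave 0.765 to 1.84 points for the share, 0.91 to 1.23 for the log2 ratio (exact permutation, p up to 0.0556), 1.82 to 6.92 points for ATG, 13.2 to 19.2 points for dORFs under 30 nt (exact permutation, p up to 0.0556) and 3.43 to 7.54 per 100 beyond the coding end. It gave 512 to 968 called dORFs over 3 conditions, 19 to 200 in log phase, 18 to 203 in serum starvation, 0 to 93 in amino acid starvation and 53 to 235 relative to coding ORFs. The lowest counts came without amino acid starvation monosome library B (512 and 53), log phase polysome library A (19), serum starvation polysome library A (18) and amino acid starvation polysome library A (0). All 5 starvation comparisons kept 0 calls. A group left with 1 library is assumed to vary like the others. The filter passed 4280 to 4949 dORFs where a monosome library was left out and 2436 to 2597 where a polysome library was, in place of 2363. The counts therefore also depend on which dORFs were tested.

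With the replicate block, counts were 1212 over 3 conditions (805 without it), 621 in log phase (133), 687 in serum starvation (124), 371 in amino acid starvation (50), 335 relative to coding ORFs (183), 24 for amino acid starvation in polysomes and 1 for serum starvation in monosomes. With no filter they were 1532, 208, 203 and 87 over the same first 4 comparisons, and 5, 1 and 14 for amino acid starvation in polysomes and serum starvation in polysomes and monosomes. With at least 20 counts in 2 libraries they were 386, 72 and 64 over the first 3, and 75 relative to coding ORFs. With every row they were 1476, 306, 338 and 110, and 309 relative to coding ORFs. DESeq2 gave 232, 243 and 111 in the 3 conditions, and 6 and 1 for amino acid starvation in polysomes and serum starvation in monosomes. Limma gave 302 relative to coding ORFs, and the groups compared alone gave 120 in amino acid starvation. Without the 2 monosome A libraries the counts were 8, 26 and 0 in the 3 conditions and 50 relative to coding ORFs. For the named dORFs 2697 values kept their call, 155 were weaker, 55 stronger and none reversed.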
